A study of Mus musculus with 4 samples.

Results

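Splicing removes introns from precursor mRNA, and a set of RNA-binding proteins decides which exons are kept. This account covers 47 genes of that machinery, chosen by name: 10 SR proteins, 2 Tra2 proteins, 16 hnRNPs, 2 polypyrimidine tract-binding (PTB) proteins, 6 core splice site factors, 7 regulators of the RBM, CELF and MBNL families and 4 kinases that phosphorylate SR proteins. All 47 were found by symbol, each under 1 Ensembl ID, among 34745 gene IDs in the table. Their levels were measured by RNA sequencing in macrophages cultured from the bone marrow of C57BL/6 mice. Every library came from cells treated with lipopolysaccharide (LPS), a bacterial cell wall component that activates macrophages. In 2 libraries the cells had received Acly-E14 siRNA, and in 2 they had received control siRNA. Small interfering RNA (siRNA) directs degradation of a matching transcript, and Acly encodes ATP citrate lyase, the enzyme that makes cytosolic acetyl-CoA. The labels do not spell out E14, and they give no age, sex, LPS dose or time. No group without LPS or without siRNA was part of the 4 samples, and the labels do not state whether the 2 libraries of each group represent different cultures or mice.

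SR proteins carry domains rich in arginine and serine and mostly promote the inclusion of exons whose enhancer sequences they bind. HnRNPs coat nascent RNA and often act as silencers of exons, so the balance of both families shapes splice site choice. Many SR and hnRNP genes control their own level through alternative exons that lead to nonsense-mediated decay of the transcript. CLK and SRPK kinases phosphorylate the arginine and serine domains and thereby set where SR proteins reside and whether they are active. The counts used here are per gene, so neither transcript isoforms nor phosphorylation of the proteins were measured.

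Each library held 21023197 to 21837806 counts. The splicing genes took 0.541% and 0.542% of them in the control libraries and 0.532% and 0.523% in the Acly-E14 siRNA libraries. Acly itself was at 158 and 154 CPM (counts scaled to library size with TMM factors) in controls and at 118 and 127 CPM after Acly-E14 siRNA (log2 fold change -0.35, SE 0.060, edgeR adjusted p = 0.0086, and 0.058 omitting control library 1). Macrophage markers were present in every library. Ctss and Lyz2 were the highest of them (means of 7737 and 4741 CPM in controls), and neither was called (log2 -0.13 and -0.04). The share of macrophage markers called was 70%, against 33.2% of all genes tested. Log2 fold changes of these markers ranged from -1.18 for Cebpa to 1.03 for Cd14. Their 20 genes summed to between 18605 and 20201 CPM, and 6 of them were higher and 8 lower (2 and 3 omitting control library 1, 4 and 4 omitting control library 2, 3 and 4 omitting Acly-E14 siRNA library 2). Markers of fibroblasts and stroma were also present. Their 17 genes summed to 2610 and 3735 CPM in controls and to 5969 and 7409 CPM after Acly-E14 siRNA, with 15 of 17 higher and 0 lower. Of these sums, Fn1, which was not called, gave 1418 and 1962 CPM in controls and 2181 and 2686 CPM after Acly-E14 siRNA. In bulk RNA, a change in the share of a cell type and a change in RNA per cell cannot be told apart. A list of 32 cell cycle genes summed to 516 and 576 CPM in controls and to 747 and 796 CPM after Acly-E14 siRNA, with 21 higher and 1 lower (12 and 0 omitting control library 1, 10 and 0 omitting Acly-E14 siRNA library 2). The part of the stromal markers or of the cell cycle genes in the splicing results was not tested. Of 22 markers of neutrophils, lymphocytes and erythroid cells, 16 were at 0 in at least 1 library, and 7 were tested, with 2 higher and 4 lower. The list summed to 97.1 and 106.7 CPM in controls and to 141.0 and 141.2 CPM after Acly-E14 siRNA. Most of this was Csf3r, a growth factor receptor gene that was called higher (84.5 and 94.6 against 131 and 128 CPM). S100a9 and 3 haemoglobin genes were the lower calls, each at no more than 43 counts in any library. These genes are named after their values were seen. With single libraries left out, the list had 1 to 3 higher and 2 to 4 lower calls, with 1 higher when either control library or Acly-E14 siRNA library 2 was left out, 3 higher omitting Acly-E14 siRNA library 1 and 2 lower omitting control library 2. Cd3e and Cd8a, markers of T cells, and Ngp, a marker of neutrophils, had 0 counts in all libraries. Other neutrophil markers were present. S100a8, the other higher call, had 129 and 112 counts in controls and 176 and 237 after Acly-E14 siRNA. Ltf, which was not tested, had 4 and 3 against 9 and 27. Ly6g, Camp, Mpo and Elane had no more than 4 counts in any library. All of these were named after their values were seen.

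Of the 47 splicing genes, 4 were higher and 10 lower after Acly-E14 siRNA, and 33 were not called. Calls required a Benjamini-Hochberg adjusted p below 0.05 in edgeR's quasi-likelihood test, fitted over all 13108 genes that passed the filter on low counts. The 14 calls are 29.8% of the splicing genes, against 33.2% of all genes tested. For higher calls the share was 8.51% against 17.3%, and for lower calls 21.3% against 15.9%. The median log2 fold change was -0.08 for the splicing genes and 0.00 for all genes. Changes were small: 3 of the 47 genes moved beyond 1.5-fold, or 6.38%, compared with 24.7% of all genes tested, and none of the 47 moved beyond 2-fold. All genes tested include many at lower levels than the splicing genes. Among the 8130 genes whose mean CPM over all libraries was at least that of the lowest splicing gene, a background added after the data were seen, 40.5% were called, 17.5% higher and 23.1% lower, and 15.1% moved beyond 1.5-fold. Their median log2 fold change was -0.06. Against these genes, the splicing genes had a smaller share of higher calls, a similar share of lower calls and a similar median. This background sets a lowest level only and is not matched in level. Its median level in controls was 38.3 CPM, against 93.0 CPM for the splicing genes. The libraries of the groups did not overlap for 31 of the 47 genes, of which 8 were higher and 23 lower. They did not overlap for 9259 of the 13108 genes tested and for 6122 of the 8130 genes. How those separated genes split by direction was not measured. Changes were negative for 4631 of the 8130 genes and for 30 of the 47 splicing genes.

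Leaving out 1 library, which left its group with 1, lowered the number of calls over all genes tested, not only among the splicing genes. The counts of called genes that follow are of the splicing genes. With either control library left out, 5 genes were called. Leaving out Acly-E14 siRNA library 2 also gave 5, and leaving out Acly-E14 siRNA library 1 gave 9. Scaling by library totals alone gave 7 higher and 6 lower genes. Under it 23 of 47 changes were negative, compared with 30 of 47 under TMM scaling, and the median of all genes was 0.09 in place of 0.00.

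**Figure D1:**
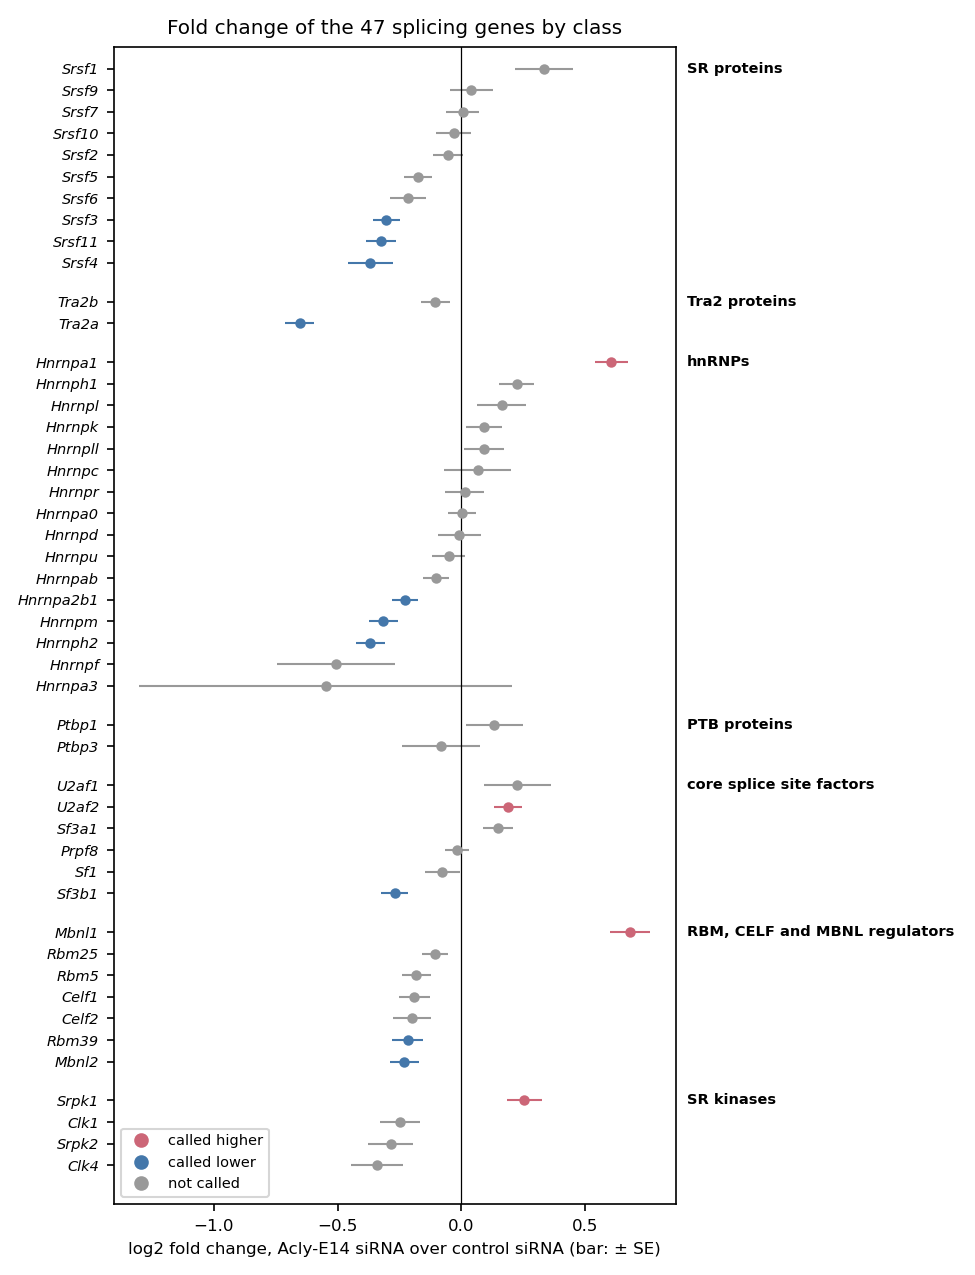
Log2 fold change of Acly-E14 siRNA over control siRNA for each of the 47 splicing genes (points, with bars of ± SE), grouped by class and coloured by call. Tra2a lies at -0.65, Hnrnpa1 at 0.61 and Mbnl1 at 0.68, and the wide bars belong to Hnrnpa3 and Hnrnpf.

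Only Tra2a, Hnrnpa1 and Mbnl1 were called with a log2 fold change of at least 0.5 in size, and of the 14 called genes these 3 were called under each of the 9 alternative analyses. The 250 bases before their RefSeq starts are shown here because these are the genes that moved most. They are on build GRCm38.p6, on the gene's strand, 5′ to 3′, with capitals marking matches on either strand to TGACGTCA (the cAMP response element), CACGTG (an E-box) or GGGCGG (a GC box, CCGCCC on the other strand). The windows are chr6:49264053-49264302 on the minus strand for Tra2a, chr15:103240147-103240396 on the plus strand for Hnrnpa1, and chr3:60472580-60472829 and chr3:60500929-60501178 on the plus strand for the 2 starts of Mbnl1.
Tra2a: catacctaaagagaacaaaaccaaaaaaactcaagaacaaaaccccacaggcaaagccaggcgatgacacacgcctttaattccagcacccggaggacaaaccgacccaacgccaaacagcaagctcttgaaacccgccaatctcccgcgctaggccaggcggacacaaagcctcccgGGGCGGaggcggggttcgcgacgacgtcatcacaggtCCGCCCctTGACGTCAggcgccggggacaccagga
Hnrnpa1: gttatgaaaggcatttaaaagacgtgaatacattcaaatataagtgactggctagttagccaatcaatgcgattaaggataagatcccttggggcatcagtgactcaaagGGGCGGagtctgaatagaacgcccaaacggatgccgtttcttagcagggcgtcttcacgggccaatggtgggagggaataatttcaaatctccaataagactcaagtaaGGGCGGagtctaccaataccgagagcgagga
Mbnl1, upstream start: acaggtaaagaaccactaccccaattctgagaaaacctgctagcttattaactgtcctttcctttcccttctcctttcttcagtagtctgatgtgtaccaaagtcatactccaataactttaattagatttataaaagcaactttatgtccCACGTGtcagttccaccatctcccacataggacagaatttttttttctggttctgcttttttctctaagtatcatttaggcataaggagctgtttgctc
Mbnl1, downstream start: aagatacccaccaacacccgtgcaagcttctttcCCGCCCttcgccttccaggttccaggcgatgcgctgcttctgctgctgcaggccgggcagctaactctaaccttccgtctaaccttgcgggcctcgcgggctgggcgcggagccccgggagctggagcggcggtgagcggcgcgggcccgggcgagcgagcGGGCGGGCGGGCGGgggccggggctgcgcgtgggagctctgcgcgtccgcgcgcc

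The start sites of Mbnl1 differed in base composition, with 38.0% G and C in the upstream window and 73.6% in the downstream one. A promoter was found by symbol for 43 of the 47 splicing genes, with 64 windows in all. The motifs were chosen after the sequences had been looked at. GGGCGG was in 68.8% of the 64 windows and in 32.7% of all 32851 promoter windows of that length. The median G and C content was 61.8% in the former and 52.4% in the latter. TGACGTCA was in 2 of the windows, those of Tra2a and Clk4, and in 1.55% of all windows. CACGTG was in 7.81% of the windows and in 6.02% of all. A match here is a description of the letters, not evidence of binding.

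Tra2a and Tra2b encode SR-like proteins that bind exonic enhancers and were first studied as regulators of sex-specific splicing in flies. Tra2a (mm10, chromosome 6, 49243924 to 49264033, minus strand) was at 238 and 229.8 CPM in controls and at 154 and 143 CPM after Acly-E14 siRNA. Both treated libraries lay well below both controls, and the libraries within a group differed little. Its mean went from 233.7 ± 5.52 to 148.5 ± 7.62 CPM (SD, n = 2), 0.636 of the control level, with a log2 fold change of -0.65 (SE 0.060, edgeR adjusted p = 0.0018). Tra2b was not called (log2 -0.10, edgeR adjusted p = 0.23).

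Among the 10 SR protein genes, 3 fell, none rose and 7 were not called, with a median of -0.11 on the log2 scale. The share called was 30%, against 33.2% of all genes tested. The called genes were Srsf3 (log2 -0.30), which encodes the smallest family member and regulates its own splicing, Srsf4 (log2 -0.37) and Srsf11 (log2 -0.32). Srsf4 had the largest change of the class. It was at 41.7 and 47.8 CPM in controls and at 35.3 and 34.1 CPM in the treated libraries, so the groups were separate but control library 2 stood higher than control library 1. The gene shares 1532 of its 3561 merged exon bases with the antisense transcript Gm12992, and its counts are therefore less certain. Its edgeR adjusted p was 0.027, and it was 0.096 omitting control library 2, 0.084 omitting Acly-E14 siRNA library 1 and 0.125 omitting Acly-E14 siRNA library 2. For Srsf3 (0.010) it was 0.056 omitting control library 1, 0.051 omitting control library 2 and 0.067 omitting Acly-E14 siRNA library 2. For Srsf11 (0.012) it was 0.059 omitting control library 2, 0.052 omitting Acly-E14 siRNA library 1 and 0.069 omitting Acly-E14 siRNA library 2.

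The remaining SR protein genes were not called. Srsf1, the founding member of the family and a promoter of exon inclusion, had the highest value of the class, a log2 fold change of 0.34 (SE 0.12, edgeR adjusted p = 0.077). Its libraries were at 42.3 and 51.0 CPM against 63.4 and 54.4 CPM, so they were separate while the libraries within each group were spread apart. Of the 9 alternatives, 2 called Srsf1 higher: the DESeq2 Wald test (adjusted p = 0.034) and edgeR with library totals alone (0.047). Srsf5 and Srsf6 had log2 values of -0.17 and -0.22. Srsf6 was called omitting Acly-E14 siRNA library 1 (adjusted p = 0.049). Srsf2, Srsf7, Srsf9 and Srsf10 lay between -0.05 and 0.04, and their groups overlapped.

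Of the 16 hnRNP genes, 1 rose, 3 fell and 12 were not called, with a median of 0.00. The share called was 25%, against 33.2% of all genes tested. The gene that rose was Hnrnpa1, which encodes an abundant silencer of exons that shuttles between nucleus and cytoplasm. It lies on the plus strand of chromosome 15 from 103240432 to 103246692. Its level was 34.8 and 34.3 CPM in controls and 52.8 and 52.6 CPM after Acly-E14 siRNA. The libraries within each group were nearly alike, and the groups stood far apart relative to that spread. The change was 1.52-fold (log2 0.61, SE 0.067, edgeR adjusted p = 0.0026), and its log2 value lay between 0.60 and 0.70 over the alternatives. Processed pseudogenes close in sequence to Hnrnpa1 exist in the mouse genome, and how reads shared with them were counted is not known here.

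The hnRNP genes that fell were Hnrnph2, Hnrnpm and Hnrnpa2b1. Hnrnph2, an X-linked gene for a protein that binds runs of G, went from 244.9 ± 7.93 to 189.8 ± 7.64 CPM (SD, n = 2; log2 -0.37, SE 0.058, edgeR adjusted p = 0.0072). It missed the threshold in 1 of the 9 alternatives, omitting control library 1 (0.054). Hnrnpm changed by -0.31 in log2 (edgeR adjusted p = 0.011), and its adjusted p was 0.073 omitting control library 1 and 0.054 omitting Acly-E14 siRNA library 1. It shares 1169 exon bases with March2. Hnrnpa2b1, a close relative of Hnrnpa1, had a log2 change in the other direction, -0.23 (edgeR adjusted p = 0.024). With any single library left out its adjusted p was 0.053 to 0.12. Hnrnph1, the partner of Hnrnph2, had a value of 0.22 and was not called (0.060).

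Hnrnpa3 and Hnrnpf were set apart by a single library. Hnrnpa3 had 428 and 455 counts in controls, 564 in Acly-E14 siRNA library 1 and 72 in Acly-E14 siRNA library 2. In CPM, the treated libraries differed 7.85-fold, whereas the controls were alike. Its log2 fold change was -0.55 (SE 0.75, edgeR adjusted p = 0.61), and it was -2.69 (adjusted p = 0.0029) omitting Acly-E14 siRNA library 1 and 0.28 (adjusted p = 0.16) omitting Acly-E14 siRNA library 2. Hnrnpf, which encodes a relative of the H proteins, had 4601 and 4458 counts in controls, 4268 in Acly-E14 siRNA library 1 and 2459 in Acly-E14 siRNA library 2. It was not called with all libraries (log2 -0.51, edgeR adjusted p = 0.16), was called omitting Acly-E14 siRNA library 1 (log2 -0.96, 0.0044) and was not called when library 2 was left out (log2 -0.16, 0.25). No direction is given for either gene.

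**Figure D2:**
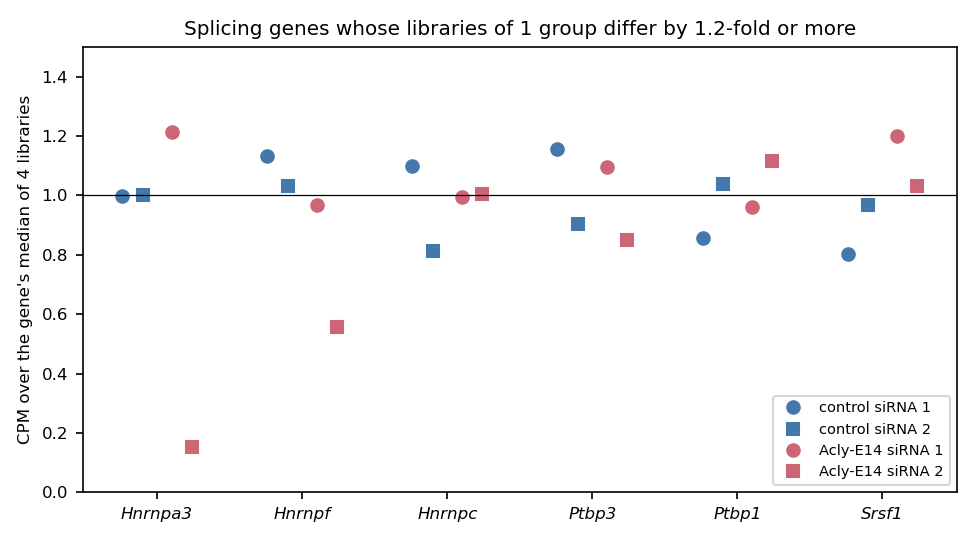
CPM of each library over the gene's median of 4 libraries, for the 6 splicing genes whose libraries of a group differ by 1.2-fold or more (circles, library 1; squares, library 2). Acly-E14 siRNA library 2 is far below the others for Hnrnpa3 and below them for Hnrnpf, and the circles lie above the squares in both groups for Ptbp3.

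The remaining 9 hnRNP genes were not called. They ranged from Hnrnpab (log2 -0.10) to Hnrnpl (log2 0.16). Hnrnpab had the highest level of the whole set per gene length. Hnrnpu, a scaffold-associated protein gene, and Hnrnpa0 had log2 values of -0.05 and 0.00. Hnrnpk and Hnrnpll were at 0.09 each, Hnrnpr at 0.01 and Hnrnpd at -0.01. Hnrnpc, whose product binds uridine tracts, had control values of 136 and 101 CPM and treated values of 124 and 125 CPM, so its controls enclosed the treated libraries.

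The PTB proteins bind pyrimidine tracts and repress exons, and neither gene was called. Ptbp1, which is widely expressed, was at 109.7 and 133 CPM in controls and at 123 and 143 CPM in treated libraries. Ptbp3, known from blood cells, was at 396 and 309 CPM in controls and at 375 and 291 CPM in treated libraries. For each gene the groups overlapped, and the libraries of a group differed by more than the group means did. In both groups library 1 had the higher Ptbp3 and the lower Ptbp1 value. Their log2 fold changes were 0.13 (SE 0.11, edgeR adjusted p = 0.41) and -0.08 (SE 0.16, edgeR adjusted p = 0.73).

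The core factors recognise the branch point and the 3′ splice site or lie at the catalytic centre. Of 6 genes, 1 rose, 1 fell and 4 were not called (33.3% called, against 33.2% of all genes tested). Sf3b1, whose product clamps the branch point within the U2 particle, was at 307 and 300.4 CPM in controls and at 259 and 245 CPM after Acly-E14 siRNA. The controls lay above the treated libraries, by a modest margin (log2 -0.27, SE 0.055, edgeR adjusted p = 0.015). The adjusted p was 0.091 omitting control library 1, 0.060 omitting control library 2 and 0.082 omitting Acly-E14 siRNA library 2. U2af2, the gene for the large subunit of the factor that binds the polypyrimidine tract, went from 144.5 and 139.6 to 165 and 159 CPM (log2 0.19, edgeR adjusted p = 0.047). It missed the threshold whenever a library was left out (0.109 to 0.19). U2af1, the small subunit gene, had a log2 value of 0.23 (edgeR adjusted p = 0.24) and the fewest counts of the set over the 4 libraries, 167 to 222 in each. Sf3a1 was at 0.15, Sf1, the branch point binding protein, at -0.08 and Prpf8, the large protein at the catalytic centre, at -0.02.

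In the RBM, CELF and MBNL class, 1 gene rose and 2 fell of 7 (42.9% called, against 33.2% of all genes tested). Muscleblind-like proteins bind YGCY elements and favour exon patterns of differentiated cells. Mbnl1, on the plus strand of chromosome 3 from 60472830 to 60629750, was at 37.6 and 34.2 CPM in controls and at 55.8 and 59.5 CPM after Acly-E14 siRNA. The groups were well separated. This was the largest rise of the 47 genes, 1.61-fold (log2 0.68, SE 0.081, edgeR adjusted p = 0.0031). Its paralog Mbnl2 was called in the other direction, from 240.4 and 247 to 201 and 215 CPM (log2 -0.23, edgeR adjusted p = 0.029), but it missed the threshold whenever a library was left out (0.054 to 0.133).

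Rbm39, an SR-related factor that assists recognition of the 3′ splice site, changed by -0.22 in log2 (edgeR adjusted p = 0.047). With any single library left out its adjusted p was 0.061 to 0.23. Rbm5, Rbm25, Celf1 and Celf2 had log2 values of -0.18, -0.10, -0.19 and -0.20 and were not called. In each of these 4 genes both treated libraries lay below both controls. Groups also did not overlap, in either direction, for 9259 of the 13108 genes tested.

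Of the 4 SR kinase genes, 1 was called (25%, against 33.2% of all genes tested). Srpk1, which encodes the cytoplasmic kinase that licenses SR proteins for import into the nucleus, was at 36.5 and 38.5 CPM in controls and at 45.2 and 44.4 CPM after Acly-E14 siRNA (1.19-fold, log2 0.26, SE 0.072, edgeR adjusted p = 0.041). With any single library left out its adjusted p was 0.072 to 0.158. Srpk2, the related kinase gene, was at 20.96 and 20.1 CPM in controls and at 16.4 and 17.3 CPM in treated libraries (log2 -0.29, SE 0.093, edgeR adjusted p = 0.062). Both kinases separated the groups, as most genes tested did, Srpk1 upward and Srpk2 downward, though Srpk2 missed the threshold.

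Clk1 and Clk4 encode nuclear kinases that release SR proteins from speckles, and their own transcripts are partly held back in the nucleus with introns retained. Clk1 was at 39.4 and 37.7 CPM in controls and at 33.8 and 31.2 CPM in treated libraries (log2 -0.25, SE 0.081, edgeR adjusted p = 0.065). Clk4 was at 22.3 and 25.8 CPM against 18.8 and 19.2 CPM (log2 -0.34, SE 0.11, edgeR adjusted p = 0.055). For each gene the treated libraries were below the controls, and neither passed the threshold. The groups did not overlap for most genes tested.

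**Figure D3:**
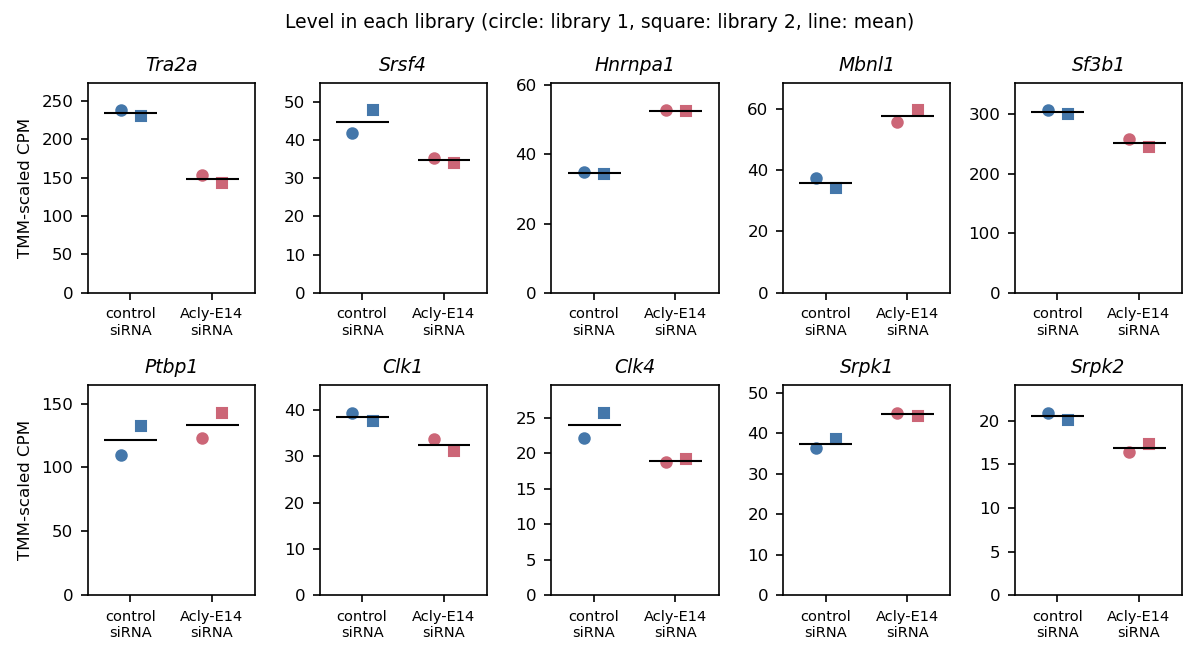
TMM-scaled CPM (vertical axis from 0) in each of the 4 libraries for 10 splicing genes, with circles for library 1, squares for library 2 and lines for group means. Tra2a goes from 233.7 to 148.5 CPM, Hnrnpa1 and Mbnl1 rise, and the Ptbp1 libraries of the groups overlap.

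Ratios of the counts of related genes within a library do not depend on how libraries are scaled. Of 8 pairs, 4 had ratios that did not overlap between groups. How often ratios of other gene pairs separate the groups was not measured. Taken singly, 9259 of the 13108 genes tested did not overlap between groups. Mbnl1 over Mbnl2 was 0.156 and 0.138 in controls and 0.278 and 0.277 in treated libraries, a 1.89-fold higher ratio. Srpk1 over Srpk2 was 1.74 and 1.92 in controls and 2.76 and 2.57 in treated libraries, 1.46-fold higher. Hnrnph1 over Hnrnph2 went from 0.258 and 0.269 to 0.406 and 0.387, 1.51-fold higher. In these 3 pairs the first-named gene gained on its relative in both treated libraries. Tra2a over Tra2b went the other way, from 2.93 and 2.71 to 2.03 and 1.83, which is 0.682 of the control ratio. These are ratios of counts and not of levels per length.

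The pairs Clk1 and Clk4, Ptbp1 and Ptbp3, Hnrnpl and Hnrnpll, and Celf1 and Celf2 had overlapping ratios. Their differences of log2 ratios were 0.09, 0.22, 0.07 and 0.01. For Celf1 over Celf2 the ratio lay between 3.85 and 4.04 in all 4 libraries. With 2 libraries against 2, an exact two-sided permutation test cannot give a p below 0.333, which is the value for the 4 separated pairs (0.666 adjusted over 8 pairs). No pair can therefore pass a threshold of 0.05 in that test.

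**Figure D4:**
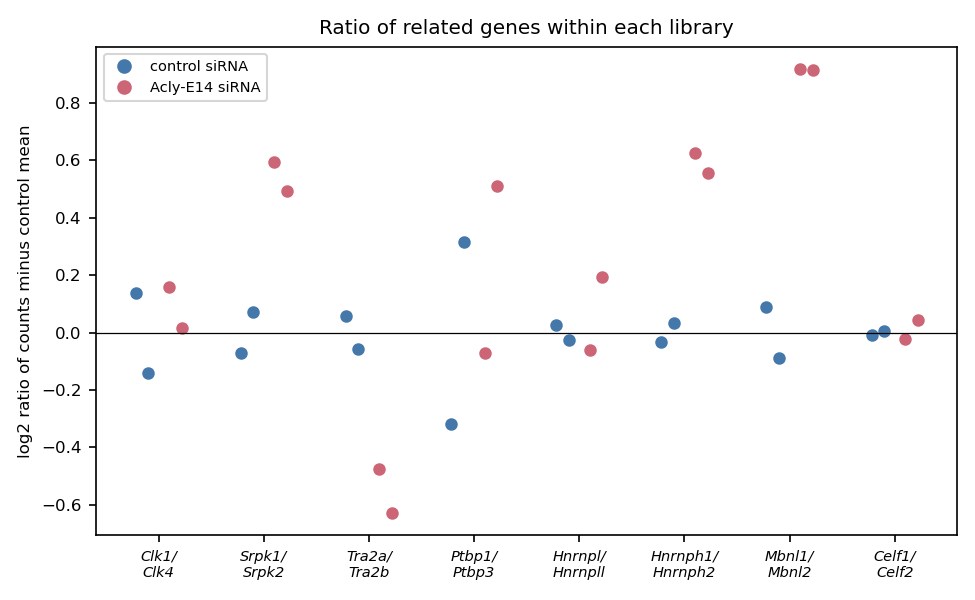
Log2 ratio of the counts of 8 gene pairs in each library, minus the control mean of the pair (blue, control siRNA; red, Acly-E14 siRNA). The treated libraries lie above the controls for Mbnl1/Mbnl2, Hnrnph1/Hnrnph2 and Srpk1/Srpk2 and below them for Tra2a/Tra2b.

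Levels per gene length are given as FPKM, the authors' deposited fragment counts scaled by gene length and depth. By that measure 23 of the 47 genes had at least 10 FPKM in controls. Hnrnpab led with 73.9 FPKM, followed by Mbnl2 (51.8), U2af2 (45.1), Hnrnpc (36.4) and Hnrnpa2b1 (30.0). Hnrnpab shares 809 of its 2782 merged exon bases with Phykpl on the other strand, so its level is less certain. The lowest values were those of Celf2 (0.575 FPKM), Mbnl1 (0.772), Hnrnpr (0.849) and Srpk2 (1.13). All 4 SR kinases were among the 9 lowest, from 1.13 to 3.27 FPKM. The order depended on the gene length used. The length implied by count and FPKM was over 5% longer than the merged GENCODE M21 exons for 36 of 47 genes and matched them within 5% for 2. For Mbnl1 it was 45.016 kb against 18.7 kb, and for Mbnl2 4.55 kb against 11.99 kb. Per kilobase of merged exon, Hnrnpab was still highest, while Mbnl2 ranked 18 in place of 2 and Hnrnpr was lowest. Comparisons of level between genes, such as Mbnl1 below Mbnl2, therefore carry that uncertainty. Fold changes between groups do not use a gene length, but which reads the counts include is not known here.

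Other parts of the machinery were described from 6 further lists. Of 31 tested proteins of the Sm ring and the small nuclear ribonucleoproteins, 1 rose and 4 fell (median log2 -0.04). The share called was 16.1%, against 33.2% of all genes tested. The falls included Lsm8, a subunit of the U6 ring, from 24.5 and 24.3 to 18.4 and 17.0 CPM (log2 -0.46), and Prpf4, a U4/U6 protein, from 49.9 and 48.3 to 37.0 and 39.2 CPM (log2 -0.37). Lsm2, the 1 that rose (log2 0.55, from a low control mean of 6.63 CPM), Snrpb2 and Snrnp200 (log2 -0.30 and -0.24) are named after their values were seen. The adjusted p of Lsm8 was 0.067 omitting control library 1, 0.052 omitting control library 2 and 0.073 omitting Acly-E14 siRNA library 2. That of Prpf4 was 0.067 omitting control library 1, 0.077 omitting Acly-E14 siRNA library 1 and 0.050 omitting Acly-E14 siRNA library 2. No fall was called in this list omitting control library 1 or omitting Acly-E14 siRNA library 2, 2 were called omitting control library 2 and 1 omitting Acly-E14 siRNA library 1, and the rise was called only with all libraries or omitting control library 1 when single libraries were left out. Library totals alone gave 4 rises and 2 falls.

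Among 45 SF3, Prp19 complex and helicase genes, 2 rose and 12 fell (31.1% called, against 33.2% of all genes tested, median log2 -0.16). The share called higher was 4.44%, against 17.3% of all genes tested. The share called lower was 26.7%, against 15.9% of all genes tested. It was 23.1% in the 8130 genes at or above the lowest splicing gene in mean CPM. Prpf38a, which joins the spliceosome before its activation, had the largest fall, from 164 and 161 to 90.6 and 90.8 CPM (log2 -0.84, SE 0.053, edgeR adjusted p = 8.4e-04). Prpf38b, a related gene, fell from 83.5 and 119 to 56.4 and 57.3 CPM (log2 -0.83), with an adjusted p of 0.052 omitting Acly-E14 siRNA library 2. Prpf19, the ubiquitin ligase at the centre of its complex, rose from 30.7 and 32.7 to 50.2 and 54.6 CPM (log2 0.72, SE 0.081, edgeR adjusted p = 0.0027). Isy1 rose by 0.40 on the log2 scale, with an adjusted p of 0.055 to 0.116 when any single library was left out. The number of falls was 5 omitting control library 1, 6 omitting control library 2, 7 omitting Acly-E14 siRNA library 1, 3 omitting Acly-E14 siRNA library 2 and 6 with library totals alone.

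Among 72 tested SR-related and other regulatory genes, 4 rose and 11 fell (20.8% called, against 33.2% of all genes tested, median log2 -0.11). The share called higher was 5.56% and the share called lower 15.3%, against 17.3% and 15.9% of all genes tested. Rbfox2, a regulator that binds GCAUG, rose from 24.4 and 27.8 to 44.9 and 49.7 CPM (log2 0.86, SE 0.10, edgeR adjusted p = 0.0029). U2surp (log2 -0.58) and Taf15, a FET family gene (log2 -0.57), had the largest falls above 10 CPM. Tia1 (log2 0.46) was called with all libraries, and without any 1 of the 4 its adjusted p lay between 0.068 and 0.167. Pcbp4 and Esrp2, named after their values were seen, rose by 0.79 and 2.35 from 5.05 and 0.191 CPM. Rbfox2, U2surp and Taf15 passed the threshold under all 9 alternatives, as Prpf38a and Prpf19 did. The falls in this list numbered 5 omitting control library 1, and the rises 1 with control library 1 or either treated library left out.

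Of 14 tested further kinases, phosphatases and carriers of SR proteins, 2 rose and 4 fell (42.9% called, against 33.2% of all genes tested). Ppp1cb, a catalytic subunit of protein phosphatase 1, fell from 155 and 171 to 112 and 109 CPM (log2 -0.56, edgeR adjusted p = 0.0034), and part of its exons is shared with Gm43312. Top1, whose product also phosphorylates SR proteins, fell by 0.34 on the log2 scale, with an adjusted p of 0.051 omitting control library 1 and 0.054 omitting Acly-E14 siRNA library 2. Dyrk1b had a log2 change of 0.52, with an adjusted p of 0.067 to 0.118 when any single library was left out. Ppp1cc, Tnpo3 and Ppp1ca are named after their values were seen. On the log2 scale Ppp1cc rose by 0.82, from a low control mean of 3.40 CPM. Tnpo3, the importer of SR proteins, and Ppp1ca fell by 0.21 and 0.19. Clk2 and Clk3 were not called (edgeR adjusted p = 0.25 and 0.41). Srpk3 was too low to be tested. No rise of this list was called without any 1 of the 4 libraries, and the falls numbered 1 omitting control library 1, 2 omitting Acly-E14 siRNA library 1 and 1 omitting Acly-E14 siRNA library 2. Library totals alone gave 4 rises and 2 falls.

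Of 10 minor spliceosome genes, 0 rose and 2, Zrsr1 and Zcrb1, fell (log2 -0.40 and -0.37). Of 16 factors of nonsense-mediated decay, 0 rose and 3 fell by edgeR, among them Upf2 (log2 -0.37) and Rnps1 (log2 -0.27). Upf1, the central helicase of that pathway, was not called (edgeR adjusted p = 0.88). The shares called in the minor spliceosome and decay lists were 20% and 18.8%, against 33.2% of all genes tested. Without Acly-E14 siRNA library 2, no gene of either list was called. The adjusted p of Upf2 was then 0.061, that of Zcrb1 0.112, that of Zrsr1 0.062 and that of Rnps1 0.093. Zrsr1 and Zcrb1 also missed the threshold omitting control library 1 (0.113 and 0.078) and omitting control library 2 (0.081 and 0.072), Zrsr1 omitting Acly-E14 siRNA library 1 (0.13), and Rnps1 omitting control library 1 (0.109) and Acly-E14 siRNA library 1 (0.103). Rnps1 and Rbm8a stand in both the decay list and the list of regulators.

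**Figure D5:**
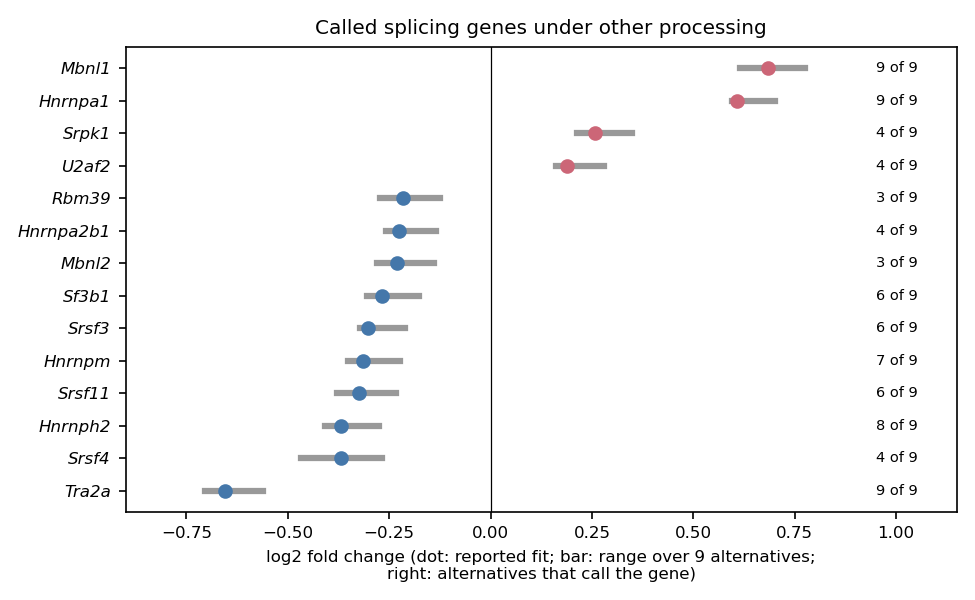
Log2 fold change of the 14 called splicing genes (points) with the range over 9 alternative analyses (bars) and, at the right, the number of alternatives under which each gene was called. Every bar stays on its side of 0. Mbnl1, Hnrnpa1 and Tra2a were called under 9 of 9 alternatives, Hnrnph2 under 8 and Rbm39 and Mbnl2 under 3.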

How the data were processed

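RNA was sequenced from 4 libraries, 2 per siRNA group, and the deposited table gives raw counts and FPKM per Ensembl gene ID, per the file headers. HISAT2, StringTie 1.3.0, edgeR and build mm10 are named in the submitters' processing notes. The labels name both a stranded total RNA kit and an mRNA capture kit. How reads were counted, with which annotation and with or without strand, is not stated by these labels. For FPKM, 1 column of the Acly-E14 siRNA group carries no replicate number and was not used, so that ratios of related genes, planned on FPKM, were taken from counts, and a planned limma fit on FPKM was not run. The test used edgeR 4.0.16 under R 4.3.3 (filterByExpr with a minimum count of 10, TMM factors, quasi-likelihood F test, no covariates). Log2 fold changes are Acly-E14 siRNA over control siRNA, with SE implied by the F statistic. P-values measure the spread between these libraries, which may be technical. Alternatives were a replicate block, each library left out, RLE factors, library totals alone, DESeq2 1.42.0, and no filter. Those for genes outside the 47, lists and ratios were added after the data were seen. The splicing genes and all lists were chosen with earlier results of these data known. Values per library are given for called genes of at least 0.5 in log2 size, for the largest change in each class and for the 4 kinases, and for some others chosen after their values were seen. Of each further list, the 2 largest called rises and falls at 10 CPM or more are named. The procedure was also run on counts simulated with the dispersions fitted to these data, and no result given here rests on that run. Coordinates and exons are those of GENCODE M21, promoters those of RefSeq on GRCm38.p6.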

Additional observations from a re-analysis of the deposited data

How the results depend on the processing

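Over 47 splicing genes and 9 alternatives, 335 values kept their direction and side of the threshold, 44 calls were lost, 19 were gained and 25 values changed sign without being called. With all libraries 14 splicing genes were called, 4 higher and 10 lower. Leaving out 1 library gave 5 to 9 called, 2 higher, 3 to 7 lower, and 2088 to 3215 calls over all genes in place of 4354. The replicate block gave 21 called, 5 higher and 16 lower, adding Clk1 (adjusted p = 0.045), Clk4 (0.042), Srsf5 (0.049), Srsf6 (0.037), Hnrnpf (0.043), Hnrnph1 (0.045) and Rbm5 (0.044) by edgeR. The labels do not say that the 2 shared replicate numbers pair the libraries, and deviations of same-numbered libraries correlated at 0.191. DESeq2 gave 20 called, 6 higher and 14 lower, adding Srsf1, Srsf5, Srsf6, Hnrnph1, Rbm5 and Celf1. Library totals alone gave 7 higher and 6 lower, and no filter 9 called with 2 higher. Limma on log2 FPKM was not run, since 1 FPKM column could not be assigned to a sample. The log2 values that changed sign were, with library totals, 0.038 for Srsf2, 0.061 for Srsf10, 0.086 for Hnrnpd, 0.042 for Hnrnpu, 0.011 for Ptbp3, 0.016 for Sf1 and 0.074 for Prpf8, and with no filter -0.0023 for Hnrnpa0. With 1 library left out, the log2 ranges that crossed 0 were -0.022 to 0.038 for Srsf7, -0.0095 to 0.089 for Srsf9, -0.081 to 0.015 for Srsf10, -0.014 to 0.016 for Hnrnpa0, -2.69 to 0.28 for Hnrnpa3, -0.14 to 0.30 for Hnrnpc, -0.11 to 0.10 for Hnrnpd, -0.0095 to 0.040 for Hnrnpr, -0.13 to 0.025 for Hnrnpu, -0.0012 to 0.28 for Ptbp1 and -0.27 to 0.10 for Ptbp3. The cause was not tested. A group left with 1 library was assumed to vary like the other.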
